A study of Mus musculus with 35 samples.

Results

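The enzymes described here make or remove superoxide and hydrogen peroxide. They are Nox4, Cybb and Cyba of the NADPH oxidases, the superoxide dismutases Sod1, Sod2 and Sod3, catalase (Cat) and the glutathione peroxidases Gpx1, Gpx3 and Gpx4. They were taken by gene symbol from 4 tables of RNA-Seq counts, and are 10 of the 55487 genes in each table. The CF tables, 3 in number, hold 27 libraries of primary cardiac fibroblasts (CFs) from adult mice, and the other table holds 8 mouse hearts. The study silenced IAMP, a micropeptide encoded by 4930523C07Rik, in CFs or removed it from mice, and asked which transcripts then change.

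The CFs were transfected with a scrambled siRNA (Scrambled) or with siRNAs against IAMP, IAMP-siR-1 (siR-1) or IAMP-siR-2 (siR-2), and were left untreated or given IL-17 or TGF-β, with 3 libraries in each of the 9 groups. For the IL-17 cells the labels give 24 h of siRNA and then 24 h of IL-17. The times of the untreated and TGF-β cells are not given in the sources used here. The CFs were the passaged noncardiomyocytes of digested hearts, which the study describes as primarily CFs, and not a sorted population. The labels do not say whether libraries of a group came from separate cultures, so the p values measure the spread between these libraries only. The hearts were 4 of heterozygous (Het) and 4 of IAMP-knockout (KO) C57BL/6 mice at 8 weeks of age, whose KO allele is a CRISPR-Cas9 frameshift, and the Het controls carry 1 copy of it. Fibroblast libraries held 104139670 to 119232309 estimated counts and hearts 23497027 to 23857313 counts.

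NADPH oxidases pass electrons from NADPH to oxygen. In Nox4 and Cybb, the catalytic subunits, the product is mainly hydrogen peroxide and superoxide, respectively, and both need Cyba as a partner in the membrane. Superoxide dismutases turn superoxide into hydrogen peroxide in the cytosol (Sod1), the mitochondria (Sod2) or outside the cell (Sod3), and catalase and the glutathione peroxidases remove peroxide. In CFs, Nox4 is known as a TGF-β target that accompanies the change to myofibroblasts, and Cybb as an enzyme of phagocytes.

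The siRNA labels were checked on the targeted transcript. IAMP stood at 22.0, 22.7 and 25.7 CPM (counts scaled to the TMM-normalised library total) in the untreated Scrambled libraries, at 2.52, 3.51 and 2.98 with siR-1 and at 1.77, 1.87 and 1.89 with siR-2. Its log2 fold change was -2.97 ± 0.11 (SE) for siR-1 and -3.69 ± 0.12 for siR-2 in untreated cells, -2.85 and -3.44 in IL-17 cells, and -2.23 and -2.65 in TGF-β cells. In hearts it lay between 15.9 and 18.8 CPM in Het and between 15.2 and 17.3 CPM in KO, and since a frameshift need not lower a transcript, these values do not check the genotype.

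The 8 fibroblast markers, led by collagens and Vim, summed to 14789 to 15407 CPM in untreated Scrambled cells, 20059 to 20966 CPM in siR-1 cells and 20980 to 21367 CPM in siR-2 cells. With IL-17 these sums were 14255 to 14594, 18833 to 19576 and 20702 to 21287 CPM, and with TGF-β 18517 to 19287, 20339 to 20751 and 21347 to 22463 CPM. The sums of both siRNAs lay above those of Scrambled in all 3 treatments without overlap, while of the single markers siR-1 raised 4 and lowered 2 in untreated cells and siR-2 raised 4 and lowered 3. The summed 13 macrophage markers, led by Lyz2, were at 67.9 to 73.7 CPM in untreated Scrambled cells and at 180.3 to 189.4 CPM with TGF-β, and the 6 endothelial markers, led by Cdh5, at 47.6 to 53.0 and 91.1 to 93.3 CPM. Under TGF-β 8 macrophage markers were higher and 3 lower, and 5 endothelial markers higher and 1 lower. Of the 8 cardiomyocyte markers, Tnnt2 gave most of the sum in every CF group, so these sums describe mainly 1 transcript. In untreated Scrambled cells the sum was 90.5 to 98.1 CPM. There Tnnt2 had a mean of 93.4 CPM, Actc1 0.083, Myl2 0.035 and Myh6 0. In Het hearts Myh6 was at 16776 CPM and Tnnt2 at 6194 CPM. The sum was 42.1 to 47.1 CPM in siR-1 cells, 27.7 to 32.7 CPM in siR-2 cells and 5.29 to 6.02 CPM in TGF-β Scrambled cells. The 5 smooth muscle and pericyte markers, led by Cspg4, summed to 102 to 116 CPM in untreated Scrambled cells, 65.7 to 71.9 in siR-1 cells, 52.7 to 65.1 in siR-2 cells, 152 to 157 CPM in IL-17 Scrambled cells and 63.0 to 64.4 CPM in TGF-β Scrambled cells. These sums are mostly Cspg4 and Notch3, which fell under TGF-β by 0.99 ± 0.06 and 1.08 ± 0.08 log2, while Rgs5 rose by 2.40 ± 0.16 and Myh11 by 0.97 ± 0.17. Myh11 also rose with siR-1 in untreated cells, by 0.47 ± 0.14 (adjusted p = 0.0148). With IL-17 the smooth muscle and pericyte sums were 99.1 to 105 CPM in siR-1 cells and 75.8 to 83.1 CPM in siR-2 cells, and the cardiomyocyte sums 69.7 to 76.9 CPM in Scrambled, 32.0 to 35.6 CPM in siR-1 cells and 22.9 to 26.0 CPM in siR-2 cells. With TGF-β the smooth muscle and pericyte sums were 51.5 to 53.7 and 54.3 to 56.2 CPM in the siRNA cells, and the cardiomyocyte sums 3.84 to 4.92 and 3.33 to 3.93 CPM. Against the lower smooth muscle and pericyte sums, Rgs5 rose with siR-2 and IL-17 by 0.61 ± 0.19 log2. Cspg4 rose with siR-2 and TGF-β by 0.25 ± 0.06 log2. Of the endothelial markers, Kdr fell with siR-1 by 0.76 ± 0.13 log2 in untreated and 1.06 ± 0.12 in IL-17 cells, and with siR-2 by 0.73 ± 0.13 and 0.72 ± 0.12. In the same order Pecam1 fell by 0.28, 0.32, 0.22 and 0.20 log2. Cdh5 was lower only with siR-2 in untreated cells, and Tie1, Emcn and Cldn5 were not called. Under TGF-β Kdr was not called. The endothelial sums were 43.5 to 48.2 (siR-1) and 42.1 to 46.1 CPM (siR-2) in untreated cells. With IL-17 they were 46.3 to 50.8 (Scrambled), 39.1 to 45.1 (siR-1) and 40.8 to 45.2 CPM (siR-2). Neutrophil, erythroid and adipocyte markers summed to at most 1.54 CPM in every CF library. In bulk libraries, fewer cells of a type and less RNA per cell cannot be told apart, and the part of other cells in the results below was not tested.

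The promoters shown are those of the members the results turn on most, namely Nox4, Sod2 and Gpx3. The sequences are the stretches of the 250 bases before the RefSeq start (GRCm38.p6) that lie outside annotated exons, all on the plus strand. Capitals mark matches on either strand to the GC box (GGGCGG), the core of the hypoxia response element (ACGTG or GCGTG), the antioxidant response core (TGACNNNGC or TGAGNNNGC) and the consensus of NF-κB. Matches were searched in the windows of 9 of the 10 members, with 12 starts.
Nox4, chr7:87246399-87246648: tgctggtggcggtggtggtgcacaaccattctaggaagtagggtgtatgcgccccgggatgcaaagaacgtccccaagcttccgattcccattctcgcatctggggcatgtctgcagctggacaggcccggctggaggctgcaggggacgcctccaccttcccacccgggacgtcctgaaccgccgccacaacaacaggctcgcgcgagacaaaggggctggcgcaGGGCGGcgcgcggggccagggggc
Sod2, chr17:13007589-13007816: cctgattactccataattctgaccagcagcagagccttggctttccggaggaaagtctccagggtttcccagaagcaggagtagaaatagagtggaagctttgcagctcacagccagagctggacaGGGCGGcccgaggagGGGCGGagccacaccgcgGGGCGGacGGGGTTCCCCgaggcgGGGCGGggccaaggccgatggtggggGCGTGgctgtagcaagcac
Gpx3, chr11:54902604-54902771: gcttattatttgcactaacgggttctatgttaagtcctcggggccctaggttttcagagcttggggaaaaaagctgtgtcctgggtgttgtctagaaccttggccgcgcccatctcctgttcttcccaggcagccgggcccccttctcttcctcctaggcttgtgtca
The Sod2 stretch held 4 GC boxes, 1 hypoxia response core and 1 stretch that matched the NF-κB consensus on both strands, the Nox4 stretch 1 GC box and the Gpx3 stretch none of these letters. With the exon bases left out above, the full 250-base windows held 1 GC box for Gpx3 and 2 hypoxia response cores for Sod2. The counts below are of full windows. Over all 32851 starts in the table, 32.7% of windows held a GC box, 38.6% a hypoxia response core, 23% an antioxidant response core and 7.25% the NF-κB consensus. Of the 9 members, 7 had a GC box, 4 a hypoxia response core, 1 (Sod1) an antioxidant response core and 3 (Cat, Gpx1 and Sod2) the NF-κB consensus in at least 1 window. These matches describe letters only.

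All 10 genes are protein coding, and none shares annotated exon bases with another gene in GENCODE vM21 (GRCm38). The 3 genes the results turn on lie on the plus strand, Nox4 (ENSMUSG00000030562) at chr7:87246096-87398710, Sod2 (ENSMUSG00000006818) at chr17:13006846-13040063 and Gpx3 (ENSMUSG00000018339) at chr11:54902453-54910377. Gpx4 has an annotated processed pseudogene, Gpx4-ps2, to which some of its reads could be assigned, so small differences of Gpx4 are uncertain. Per kilobase of annotated exon, which includes exons these cells may not use, the level in untreated Scrambled cells was highest for Gpx3 at 165 ± 17 CPM per kb (SD, n = 3), then Gpx4 at 135 ± 5.1, Gpx1 at 87.8 ± 3.9 and Cyba at 65.7 ± 3.5 CPM per kb. Sod3 at 33.7 ± 2.4, Cat at 27.9 ± 0.12 and Sod1 at 26.0 ± 0.84 followed. Sod2 at 4.25 ± 0.18, Nox4 at 1.90 ± 0.059 and Cybb at 0.316 ± 0.10 CPM per kb were lowest, and each step in this order was larger than the SDs beside it. In Het hearts Gpx4 was highest at 169 ± 11 CPM per kb, Sod2 at 45.9 ± 1.2 and Gpx1 at 43.1 ± 3.0 did not differ beyond their spread, Sod1 stood at 32.9 ± 1.7, and Nox4 was lowest at 0.161 ± 0.063 CPM per kb (n = 4).

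**Figure D1:**
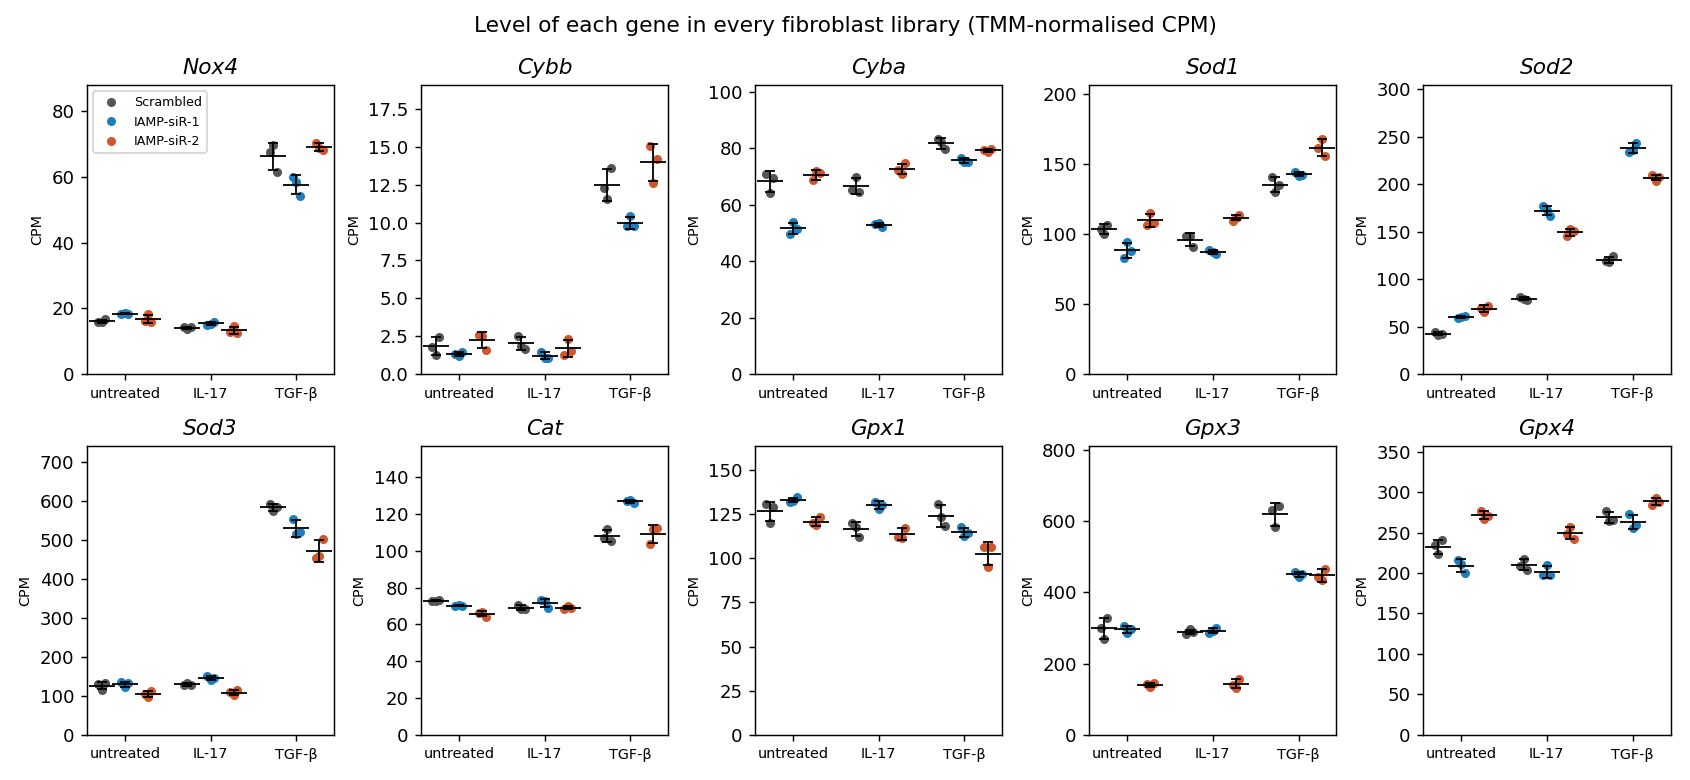
TMM-normalised CPM of the 10 genes in each of the 27 CF libraries, by siRNA and treatment; points are libraries, bars the mean and SD of 3. Sod2 lay higher with both siRNAs in all 3 treatments, and Gpx3 lay lower with siR-2 in all 3 and with siR-1 under TGF-β. Nox4, Cybb, Sod3, Cat, Sod1, Gpx3 and Cyba lay highest under TGF-β.

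The question for the siRNAs was which of these enzymes change when IAMP is silenced. Calls below are edgeR quasi-likelihood tests at a Benjamini-Hochberg adjusted p of at most 0.05, and both siRNAs are compared with the same Scrambled libraries. In untreated CFs, siR-1 raised 2 members (Sod2 and Nox4) and lowered 3 (Cyba, Sod1 and Gpx4), where 19.5% of the 19669 genes tested were called higher, 20.4% lower and 4.76% past a 2-fold change, the last of which no member reached. With siR-2, 2 were higher (Sod2 and Gpx4) and 3 lower (Gpx3, Sod3 and Cat), against 24.4% higher and 25% lower of all genes, and 1 member, Gpx3, passed a 2-fold change against 10.7% of genes. All 10 members passed the filter on low counts in every comparison.

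With IL-17, siR-1 raised 3 members (Sod2, Sod3 and Gpx1) and lowered 3 (Cybb, Cyba and Sod1), where 20.3% of 19906 genes were called higher, 21.9% lower and 13.5% past a 1.5-fold change, as were Sod2 and Cybb. With siR-2, 4 were higher (Sod2, Gpx4, Sod1 and Cyba) and 2 lower (Gpx3 and Sod3), against 25% higher, 25.6% lower and 21.7% past 1.5-fold, as were Sod2 and Gpx3. With TGF-β, siR-1 raised 2 members (Sod2 and Cat) and lowered 5 (Gpx3, Cybb, Nox4, Sod3 and Cyba), against 11.7% of 19891 genes higher, 11.4% lower and 4.36% past 1.5-fold, as was Sod2. With siR-2, 3 were higher (Sod2, Sod1 and Gpx4) and 3 lower (Gpx3, Sod3 and Gpx1), against 15.1%, 14.8% and 7.51%, and again Sod2 alone of the members passed 1.5-fold. The median log2 fold change of the 10 members lay between -0.11 and 0.04 in these 6 comparisons, beside -0.02 to 0.01 for all genes tested.

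Between the siRNAs, 9 members differed in untreated cells, where 45.5% of all genes did, 8 with IL-17, where 46.2% did, and 8 with TGF-β, where 24% did. Of these calls, that of Cat in untreated cells was lost by total counts (adjusted p = 0.0952) and without siR-2 replicate 3 (0.0685), and that of Gpx1 with TGF-β without siR-1 replicate 1 (0.0744) or siR-2 replicate 2 (0.106). Small changes depend on the scaling. Without TMM factors, which lay between 1.029 and 1.046 in untreated Scrambled and between 0.9612 and 0.9715 in untreated siR-1 libraries, the median of all genes moved from -0.02 to -0.12 with siR-1 in untreated cells and from -0.0026 to -0.11 with IL-17. No called member changed direction under any setting tried.

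**Figure D2:**
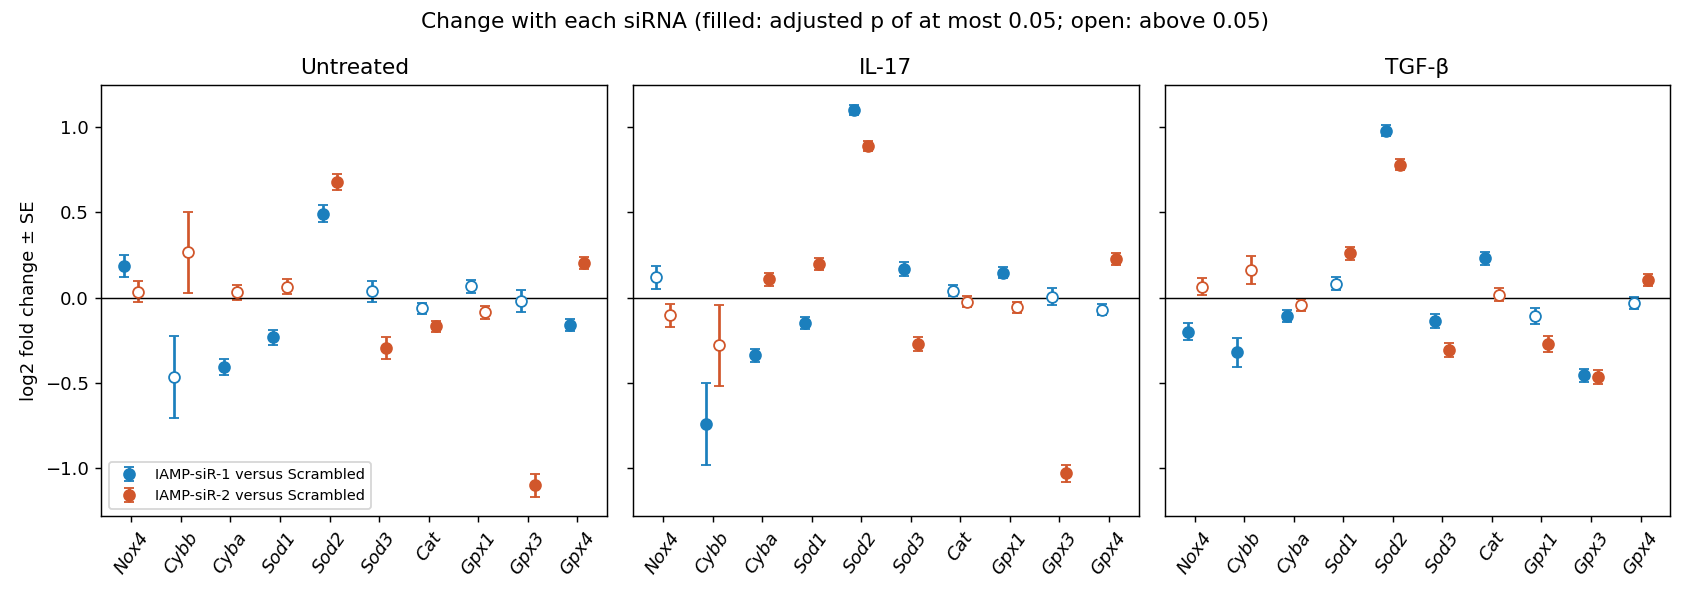
Log2 fold change with SE of each gene with siR-1 (blue) and siR-2 (orange) against Scrambled in untreated, IL-17 and TGF-β cells, filled where the adjusted p was at most 0.05. Sod2 is above 0 throughout, and Gpx3 is near -1 with siR-2 in untreated and IL-17 cells and near -0.46 with both siRNAs under TGF-β.

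Of the oxidase genes, Nox4 moved little with the siRNAs. In untreated cells it stood at 15.8, 15.7 and 16.7 CPM in Scrambled, at 18.4, 18.6 and 18.2 with siR-1 and at 16.1, 18.2 and 15.9 with siR-2. The siR-1 libraries lay above all Scrambled libraries by 0.19 ± 0.06 log2 (SE; adjusted p = 0.0271), and siR-2 overlapped Scrambled. That call was lost on scaling by total counts (adjusted p = 0.312) and on leaving out Scrambled replicate 1 or 2 or any siR-1 library (adjusted p = 0.0506 to 0.091). With IL-17, Nox4 did not pass the test against Scrambled with either siRNA (0.12 ± 0.07 with siR-1 and -0.10 ± 0.07 log2 with siR-2), though siR-2 fell by 0.22 ± 0.07 against siR-1, a call lost without siR-1 replicate 3 or siR-2 replicate 1 or 3 (adjusted p = 0.0527 to 0.0621).

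With TGF-β, Nox4 was at 67.5, 69.7 and 61.6 CPM in Scrambled, at 60.0, 58.5 and 54.4 with siR-1 and at 70.5, 68.7 and 68.2 with siR-2. All siR-1 libraries lay below all others. The siR-1 fall of 0.20 ± 0.05 log2 had an adjusted p of 0.00697, and 0.0507 without siR-1 replicate 3. The siR-2 difference was 0.06 ± 0.05 log2 (95% interval -0.04 to 0.17), and siR-2 lay 0.26 ± 0.05 log2 above siR-1 (adjusted p = 0.000829).

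Cybb was the least abundant of the 3 oxidase members in CFs, at 1.81, 1.26 and 2.43 CPM in untreated Scrambled cells, which are 151 to 303 estimated counts. Its libraries overlapped between Scrambled and both siRNAs in untreated cells, and siR-2 lay 0.74 ± 0.24 log2 above siR-1 (adjusted p = 0.019, but 0.0762 to 0.086 without siR-1 replicate 2 or siR-2 replicate 1 or 2). With IL-17 it was at 2.51, 1.88 and 1.67 CPM in Scrambled and at 1.48, 1.08 and 1.09 with siR-1, a fall of 0.74 ± 0.24 log2 (adjusted p = 0.0195) that lost its call without Scrambled replicate 1 or siR-1 replicate 2 or 3 (adjusted p = 0.0752 to 0.113). With TGF-β it was at 12.3, 11.5 and 13.6 CPM in Scrambled, at 9.76, 10.4 and 9.75 with siR-1 and at 15, 12.6 and 14.2 with siR-2. The siR-1 fall was 0.32 ± 0.08 log2 (adjusted p = 0.00895, and 0.0559 without Scrambled replicate 3), and siR-2 lay 0.16 ± 0.08 above Scrambled with an adjusted p of 0.161. Beside these values, the summed macrophage markers were at 67.9 to 73.7 CPM in untreated Scrambled cells, 66.0 to 70.2 CPM in siR-1 cells and 84.8 to 88.2 CPM in siR-2 cells. With IL-17 they were at 68.6 to 69.2 CPM in Scrambled, 73.3 to 78.2 CPM in siR-1 cells, where Cybb was lower, and 86.3 to 95.8 CPM in siR-2 cells. Under TGF-β they were at 180.3 to 189.4 CPM in Scrambled, 143 to 156 CPM in siR-1 cells and 160 to 170 CPM in siR-2 cells. The part of macrophages in the Cybb values was not tested.

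Cyba, the membrane partner of both catalytic subunits, fell with siR-1. It stood at 71.0, 64.1 and 69.6 CPM in untreated Scrambled cells and at 49.7, 53.7 and 51.6 with siR-1, and with IL-17 at 65.3, 69.8 and 64.5 and at 53.1, 53.6 and 52.1. No siR-1 library reached any Scrambled one. The falls were 0.41 ± 0.05 (adjusted p = 1.46e-06) and 0.34 ± 0.04 log2 (adjusted p = 1.73e-06), and with TGF-β 0.11 ± 0.04 (adjusted p = 0.033), the last lost without Scrambled replicate 1 or 2 or any siR-1 library (adjusted p up to 0.137). With siR-2, Cyba differed by 0.03 ± 0.04 in untreated cells, rose by 0.11 ± 0.04 with IL-17, a call lost by total counts (adjusted p = 0.542) and without Scrambled replicate 1 or 3, siR-1 replicate 1 or siR-2 replicate 1 or 3 (adjusted p up to 0.167), and differed by -0.04 ± 0.04 with TGF-β. Between the siRNAs, siR-2 lay 0.44 ± 0.05 above siR-1 in untreated and 0.45 ± 0.04 above in IL-17 cells.

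Sod2, the mitochondrial manganese enzyme, was the member that rose with both siRNAs in all 3 treatments. In untreated cells it stood at 44.3, 40.7 and 42.7 CPM in Scrambled cells, at 59.1, 60.4 and 61.1 in siR-1 cells and at 70.1, 65.2 and 72.1 CPM in siR-2 cells. The 3 groups did not overlap. The rises were 1.41-fold (0.49 ± 0.05 log2, adjusted p = 2.89e-07) with siR-1 and 1.60-fold (0.68 ± 0.05, adjusted p = 2.8e-09) with siR-2, and siR-2 was above siR-1 by 0.19 ± 0.05 (adjusted p = 0.0037).

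With IL-17, Sod2 was at 81.6, 78.9 and 78.4 CPM in Scrambled, 177, 173 and 167 in siR-1 cells and 146, 153 and 150 in siR-2 cells. With TGF-β it was at 119, 119 and 124 CPM in Scrambled, 234, 236 and 244 in siR-1 cells and 210, 204 and 208 in siR-2 cells. In both treatments siR-1 was now the highest group, and no groups overlapped. The rises with IL-17 were 2.15-fold (1.10 ± 0.03 log2, adjusted p = 3.04e-14) and 1.85-fold (0.89 ± 0.03, adjusted p = 1.37e-13), and with TGF-β 1.97-fold (0.98 ± 0.03, adjusted p = 3.43e-12) and 1.72-fold (0.78 ± 0.03, adjusted p = 2.13e-11). The order of the siRNAs was opposite to that in untreated cells, siR-2 relative to siR-1 being at -0.21 ± 0.03 log2 with IL-17 (adjusted p = 1.15e-05) and at -0.20 ± 0.03 with TGF-β (adjusted p = 0.000231), while siR-2 left less of the IAMP transcript in all 3 treatments.

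Sod1, the cytosolic copper and zinc enzyme, was called in opposite directions with the siRNAs in IL-17 cells, and with 1 of them in untreated and in TGF-β cells. It was at 104, 99.8 and 106 CPM in untreated Scrambled cells, at 82.9, 93.9 and 87.8 with siR-1 and at 106, 115 and 108 with siR-2. It fell by 0.23 ± 0.04 log2 with siR-1 in untreated cells (adjusted p = 0.000382) and by 0.15 ± 0.03 with IL-17 (adjusted p = 0.00164), and under TGF-β siR-1 lay 0.08 ± 0.04 above Scrambled with an adjusted p of 0.147. With siR-2 it rose by 0.20 ± 0.03 with IL-17 (adjusted p = 9.56e-05) and by 0.26 ± 0.04 with TGF-β (adjusted p = 4.33e-05), against 0.06 ± 0.04 in untreated cells with an adjusted p of 0.253. Its siR-2 level lay above siR-1 in all 3 treatments, by 0.30 ± 0.04, 0.35 ± 0.03 and 0.18 ± 0.04. Its copper chaperone Ccs fell with siR-1 in untreated cells by 0.42 ± 0.07 and with IL-17 by 0.29 ± 0.06. Under TGF-β with siR-1 it stood at -0.18 ± 0.06 (adjusted p = 0.0558), opposite in sign to Sod1. With siR-2 Ccs did not pass the test, at -0.13 in untreated, 0.06 in IL-17 and 0.06 in TGF-β cells, where Sod1 rose in the last 2. A link between Ccs and Sod1 was not tested.

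Sod3, the secreted dismutase, fell with siR-2 in every treatment. It was at 130, 116 and 133 CPM in untreated Scrambled cells, at 135, 123 and 132 with siR-1 and at 104, 96.9 and 111 with siR-2. The siR-2 libraries lay below the others, by 0.30 ± 0.06 log2 in untreated cells (adjusted p = 0.00162), 0.27 ± 0.04 with IL-17 (adjusted p = 2.01e-05) and 0.31 ± 0.04 with TGF-β (adjusted p = 1.84e-05). With siR-1 it rose by 0.17 ± 0.04 with IL-17 (adjusted p = 0.00259, but 0.27 by total counts) and fell by 0.14 ± 0.04 with TGF-β (adjusted p = 0.021, and up to 0.101 without Scrambled replicate 1 or 3 or siR-1 replicate 2 or 3).

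Catalase changed little, at most 1.17-fold, with either siRNA. It fell with siR-2 in untreated cells, from 72.7, 73.0 and 73.3 CPM to 66.3, 66.9 and 64.2 (-0.17 ± 0.03 log2, adjusted p = 0.000402), and rose with siR-1 under TGF-β, from 107, 112 and 105 CPM to 127, 127 and 126 (0.23 ± 0.04, adjusted p = 0.000219). In both cases the groups did not overlap. In the other 4 comparisons with Scrambled it lay between -0.06 and 0.04 log2 and did not pass the test.

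Gpx3, the secreted glutathione peroxidase, fell most. It was at 299, 268 and 329 CPM in untreated Scrambled cells, at 305, 285 and 298 with siR-1 and at 143, 135 and 145 with siR-2. With IL-17 it was at 284, 296 and 289 CPM, at 286, 293 and 299 with siR-1 and at 141, 133 and 157 with siR-2. In both treatments siR-1 overlapped Scrambled and siR-2 lay far below. The siR-2 falls were 1.10 ± 0.07 log2, to 0.47 of the Scrambled level (adjusted p = 1.98e-07), and 1.03 ± 0.05, to 0.49 of it (adjusted p = 6.42e-10), whereas siR-1 differed by -0.02 ± 0.07 (95% interval -0.17 to 0.13) and 0.0045 ± 0.05 (-0.10 to 0.11).

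With TGF-β, Gpx3 was at 632, 583 and 642 CPM in Scrambled, at 458, 443 and 450 with siR-1 and at 442, 434 and 467 with siR-2. Both siRNAs lay below all Scrambled libraries and overlapped each other. The falls were 0.46 ± 0.04 with siR-1 (adjusted p = 1.9e-07) and 0.47 ± 0.04 with siR-2 (adjusted p = 9.04e-08), and the siRNAs differed by -0.01 ± 0.04, with a 95% interval of -0.09 to 0.07.

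Gpx4, which reduces lipid hydroperoxides in membranes, rose with siR-2 from 234, 223 and 241 CPM to 276, 266 and 271 in untreated cells (0.20 ± 0.04, adjusted p = 0.000166) and by 0.23 ± 0.03 with IL-17 (adjusted p = 1.46e-05). Its rise of 0.10 ± 0.03 with TGF-β (adjusted p = 0.0279) was lost by total counts (adjusted p = 0.369), in a fit of the compared groups alone (0.0809) and without Scrambled replicate 2 or 3 or siR-2 replicate 2 or 3 (up to 0.109). With siR-1 it fell by 0.16 ± 0.04 in untreated cells (adjusted p = 0.00189). Gpx1, the main cytosolic form, rose by 0.15 ± 0.03 with siR-1 and IL-17 (adjusted p = 0.0013, but 0.402 by total counts) and fell by 0.27 ± 0.05 with siR-2 and TGF-β (adjusted p = 0.000212), from 131, 123 and 118 CPM to 106, 95.1 and 107.

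The stimuli were compared in the Scrambled cells. Each stimulus has its own table, so a stimulus and its table cannot be told apart, and both are compared with the same untreated libraries. With IL-17, 1 member was higher (Sod2) and 2 lower (Nox4 and Gpx4), where 6.13% of 22359 genes were called higher, 6.1% lower and 1.46% past a 2-fold change, which no member reached. With TGF-β, 9 members were higher and none lower, where 28% of genes were called higher and 27.5% lower, and 5 passed a 2-fold change, as did 20.8% of genes. Gpx1, the member not called, differed by -0.03 ± 0.04 log2 (95% interval -0.11 to 0.05). The median of the 10 members was 0.81 log2 with TGF-β, beside 0.02 for all genes.

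IL-17 raised Sod2 from 44.3, 40.7 and 42.7 CPM to 81.6, 78.9 and 78.4, or 1.87-fold (0.90 ± 0.04 log2, adjusted p = 7.05e-19). Nox4 fell by 0.19 ± 0.06 (adjusted p = 0.0303, but 0.0609 to 0.141 without untreated replicate 3 or IL-17 replicate 1 or 2), and Gpx4 by 0.15 ± 0.04 (adjusted p = 0.0037). TGF-β raised Cybb from 1.83 ± 0.59 to 12.5 ± 1.0 CPM (SD, n = 3), or 6.79-fold (2.76 ± 0.22 log2, adjusted p = 5.82e-11), and Sod3 from 126 ± 9.1 to 584 ± 9.5 CPM, or 4.63-fold (2.21 ± 0.06, adjusted p = 1.34e-22). Nox4 rose from 16.1 ± 0.50 to 66.3 ± 4.2 CPM, or 4.12-fold (2.04 ± 0.06, adjusted p = 7.59e-24), and Sod2 2.83-fold (SE 0.04 on the log2 scale, adjusted p = 8.32e-26). Gpx3 rose 2.07-fold (1.05 ± 0.06, adjusted p = 2.74e-14), and Cat, Sod1, Cyba and Gpx4 rose by 0.57, 0.39, 0.26 and 0.21 log2. For each called member all TGF-β libraries lay above all untreated ones. Summed macrophage markers were higher beside Cybb, as given above, and what part macrophages had in these values was not tested.

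**Figure D3:**
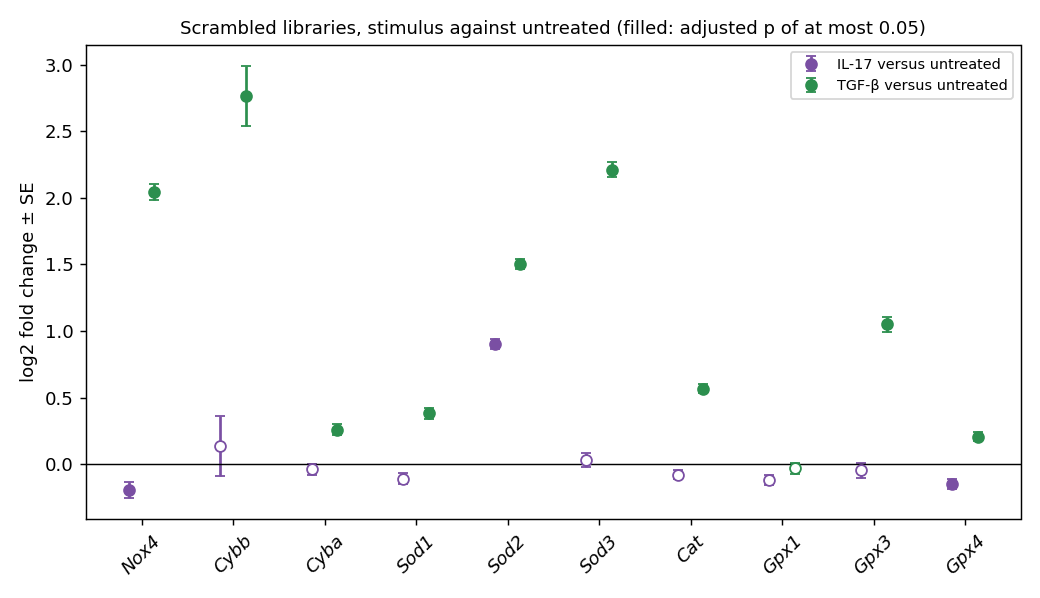
Log2 fold change with SE of the 10 genes in Scrambled cells given IL-17 (purple) or TGF-β (green) against untreated Scrambled cells, filled where the adjusted p was at most 0.05. With IL-17 Sod2 alone is well above 0, at 0.90, and with TGF-β 9 of 10 genes are above 0, with Cybb highest at 2.76.

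Whether a siRNA acted differently in stimulated cells was tested as the difference of its effect from that in untreated cells, in 1 fit of all 27 libraries, in which a constant difference between tables cancels. With IL-17, 1 member was called for siR-1, where 1.73% of 22359 genes were, and 1 for siR-2, where 1.64% were, and it was Sod2 in both. Its siR-1 effect was 0.61 ± 0.05 log2 larger with IL-17 (adjusted p = 1.44e-09), and its siR-2 effect 0.21 ± 0.05 larger (adjusted p = 0.0216). The latter was lost with no filter on low counts (adjusted p = 0.0592) and without untreated Scrambled replicate 1 or 3, untreated siR-2 replicate 2, IL-17 Scrambled replicate 2 or 3 or IL-17 siR-2 replicate 2 or 3 (adjusted p = 0.0509 to 0.104).

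With TGF-β, 7 members were called for siR-1, where 19.5% of genes were, and 4 for siR-2, where 29.5% were. For Gpx3 the difference was -0.44 ± 0.08 with siR-1 (adjusted p = 0.000213) and 0.61 ± 0.08 with siR-2 (adjusted p = 1.53e-06), so the siR-1 effect, close to 0 in untreated cells, was a fall under TGF-β, and the fall with siR-2 was smaller than in untreated cells. For Sod2 it was 0.48 ± 0.05 with siR-1 (adjusted p = 1.27e-08) and 0.08 ± 0.05 with siR-2 (95% interval -0.02 to 0.19). Nox4 differed by -0.39 ± 0.08 with siR-1 (adjusted p = 0.000489), its siR-1 effect being above 0 in untreated cells and below 0 under TGF-β, and by 0.0056 ± 0.08 with siR-2. Cat differed by 0.29 ± 0.05 and 0.17 ± 0.05 with the siRNAs, Sod1 by 0.31 ± 0.06 and 0.17 ± 0.06, and Cyba by 0.29 ± 0.06 with siR-1. Gpx1 differed by -0.18 ± 0.06 and -0.20 ± 0.06. The siR-2 call of Sod1 was lost without untreated Scrambled replicate 3, untreated siR-2 replicate 1 or TGF-β siR-2 replicate 2 (adjusted p up to 0.0803), and that of Gpx1 without untreated siR-2 replicate 3 or TGF-β Scrambled replicate 1 (up to 0.0857). The siR-1 call of Gpx1 was lost by total counts (adjusted p = 0.235) and without untreated Scrambled replicate 2, TGF-β Scrambled replicate 1 or 2 or TGF-β siR-1 replicate 2 (up to 0.142). The knockdown itself was weaker under TGF-β, IAMP being 0.73 ± 0.15 log2 less lowered with siR-1 (adjusted p = 0.000541) and 1.02 ± 0.16 less with siR-2 (adjusted p = 3.84e-06).

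**Figure D4:**
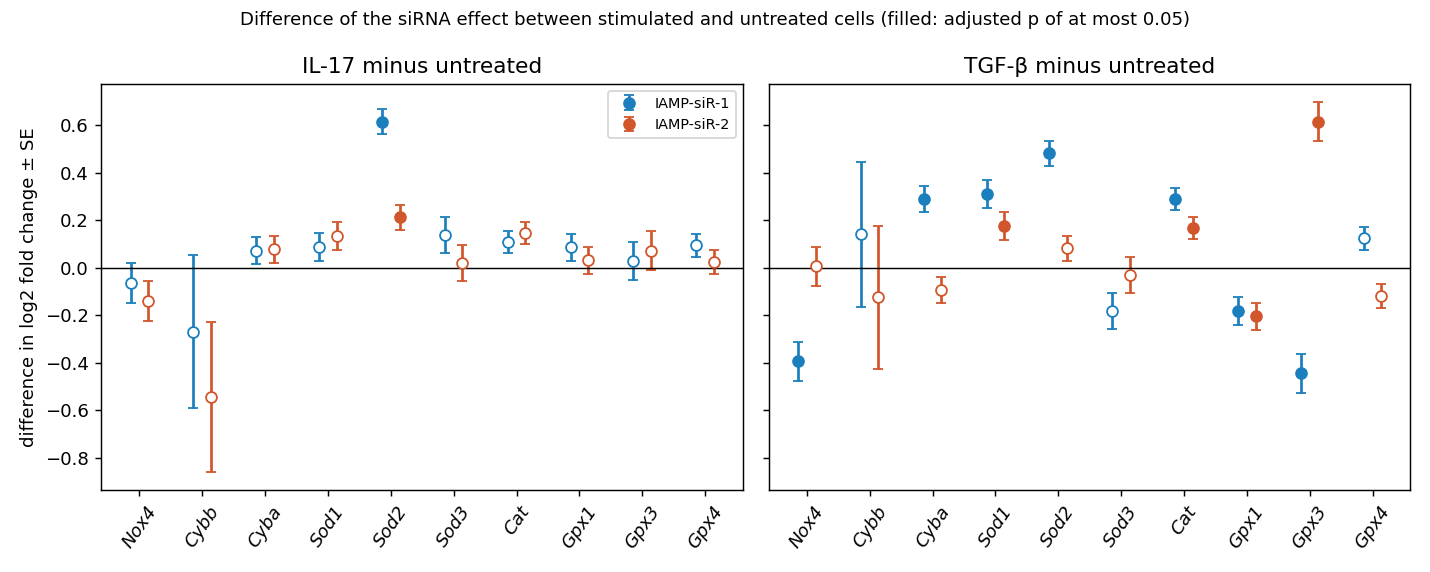
Difference, with SE, between the log2 fold change of each siRNA in IL-17 or TGF-β cells and in untreated cells, filled where the adjusted p was at most 0.05. With IL-17 Sod2 alone is filled, and with TGF-β Gpx3 is at -0.44 with siR-1 and at 0.61 with siR-2.

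Other genes of the same chemistry were taken from 4 lists of other oxidase genes, other peroxidases, glutathione and thioredoxin support, and copper and selenium supply. The list of other oxidase genes also holds Xdh. The counts below stand beside the shares of all genes called in the same comparisons, which for siR-1 were 19.5% higher and 20.4% lower in untreated cells, 20.3% and 21.9% with IL-17 and 11.7% and 11.4% with TGF-β. For siR-2 the shares were 24.4% and 25%, then 25% and 25.6%, then 15.1% and 14.8%. Of the 14 support genes, siR-1 raised 7 and lowered 2 in untreated cells, and siR-2 raised 11 and lowered 2. In IL-17 cells, siR-1 raised 9 and lowered 1, and siR-2 raised 11 and lowered 1. In TGF-β cells, siR-1 raised 7 and siR-2 raised 11, and neither lowered any. The list's median was 0.12 and 0.38 log2 in untreated cells, 0.22 and 0.39 with IL-17 and 0.20 and 0.40 with TGF-β, against medians of all genes between -0.02 and 0.01. Gclm, the regulatory subunit of glutathione synthesis, stood at 80.5 CPM in untreated Scrambled cells and rose to 177 CPM (siR-1) and 172 CPM (siR-2) (1.13 ± 0.04 and 1.07 ± 0.04 log2), by 1.09 and 1.07 with IL-17 and by 1.17 and 1.00 with TGF-β. Srxn1, which restores overoxidised peroxiredoxins, rose by 0.98 ± 0.03 and 1.44 ± 0.03 in untreated cells, by 1.11 and 1.49 with IL-17 and by 0.90 and 1.17 with TGF-β.

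Txnrd1, the cytosolic thioredoxin reductase, rose by 0.71 and 0.68 with IL-17, and Gclc, the catalytic subunit of glutathione synthesis, by 0.95 and 1.06 with TGF-β. Prdx6, a peroxiredoxin that uses glutathione, rose by 1.06 ± 0.03 and 0.78 ± 0.03 log2 in untreated cells, by 1.19 and 0.86 with IL-17 and by 0.60 and 0.75 with TGF-β, and Prdx1 by 0.61 and 1.08 with IL-17. Of the 11 other peroxidases and peroxiredoxins, 8 or 9 were tested, and siR-1 raised 5 and lowered 1 in untreated cells, raised 6 and lowered 1 in IL-17 cells, and raised 5 and lowered 1 in TGF-β cells. For siR-2 these counts were 4 and 2, then 4 and 1, then 5 and 0. Xdh, the xanthine dehydrogenase that can release superoxide, rose from 141 CPM in untreated Scrambled cells to 223 (siR-1) and 387 CPM (siR-2) (0.65 ± 0.04 and 1.43 ± 0.04 log2) and by 0.92 and 0.85 with TGF-β. Of the 16 other oxidase genes, 11, 12 and 15 were tested in the 3 treatments. In each comparison 1 to 3 were higher and 0 to 2 lower. These counts include Xdh, the only 1 of the list higher with siR-1 in untreated and in TGF-β cells. Duoxa1, a maturation factor, stood at 0.860 CPM with Scrambled and IL-17 and rose by 0.65 ± 0.24 and 1.12 ± 0.24 log2. Of the 8 copper and selenium genes, siR-1 raised 2 and lowered 4 in untreated cells, raised 2 and lowered 5 in IL-17 cells, and raised 2 and lowered 0 in TGF-β cells. For siR-2 these counts were 6 and 0, then 6 and 0, then 4 and 0.

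In the Scrambled cells under TGF-β, 2 of the 14 support genes were higher, 8 lower and 4 not called, with a median of -0.18 log2, where 28% of all genes were called higher and 27.5% lower. Txnrd1 fell by 1.17 ± 0.03 (adjusted p = 1.26e-24) and Gclc by 0.74 ± 0.04 (adjusted p = 1.89e-18). With IL-17, 5 of the support genes were higher and 1 lower, where 6.13% and 6.1% of all genes were. Of the other peroxidases 0 were higher and 2 lower with IL-17 and 6 higher and 1 lower with TGF-β, of the other oxidase genes 1 and 0 and then 6 and 1, and of the copper and selenium genes 1 and 0 and then 3 and 3.

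Across the 27 CF libraries, which fall into 3 treatments and so share that contrast, the log2 CPM of Nox4 followed that of Sod3 (Pearson r = 0.97), Cybb (0.97) and Cat (0.95), and Gpx1 ran against Sod1 (-0.70). Among 10700 genes with at least 5 CPM on average, the genes most like Nox4 were Praf2 (r = 0.992), Fstl3 (0.991) and Rpl15-ps6 (0.989), those most like Sod2 were Hif1a (0.980), Gdnf (0.970) and Ccl7 (0.969), and those most like Gpx3 were Meg3 (0.983), Cdk4 (0.982) and Nfic (0.981). Hif1a encodes the oxygen-regulated subunit of HIF-1 and Ccl7 a chemokine. These values describe 27 libraries of 9 groups and carry no test.

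In hearts the question was whether loss of IAMP changes these enzymes without silencing the transcript. None of the 10 members was called in KO against Het, and 0% of the 16675 genes tested were. No member had an unadjusted p under 0.05 in edgeR, where 601 of all genes did, and DESeq2 called no member and 3 genes in all. Sod2 was at 462, 474, 454 and 447 CPM in Het and 443, 439, 433 and 468 in KO, Gpx3 at 230, 235, 286 and 273 and at 259, 247, 245 and 270, and Nox4 at 1.38, 0.653, 1.95 and 1.48 and at 1.48, 1.14, 1.97 and 1.47 CPM. The Nox4 values rest on 15 to 46 counts in Het and 27 to 48 in KO. The groups overlapped for every member.

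The differences of KO from Het were -0.04 ± 0.04 log2 for Sod2 (95% interval -0.13 to 0.05), -0.0030 ± 0.07 for Gpx3 (-0.16 to 0.16), 0.15 ± 0.28 for Nox4 (-0.48 to 0.78) and -0.25 ± 0.17 for Cybb (-0.64 to 0.13). Hearts hold other cells beside CFs, and the summed fibroblast markers were at 751 to 1108 CPM in Het and 936 to 998 CPM in KO, and the cardiomyocyte markers, led by Myh6, at 53286 to 58131 and 53166 to 55447 CPM. Macrophage markers were at 255 to 304 and 243 to 278 CPM, endothelial markers at 527 to 601 and 541 to 573 CPM, and erythroid markers, led by Hba-a1, at 1009 to 1296 and 957 to 1421 CPM. Of the 39 genes of the 4 pathway lists tested in hearts, none was called in edgeR and 1 had an unadjusted p under 0.05.

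**Figure D5:**
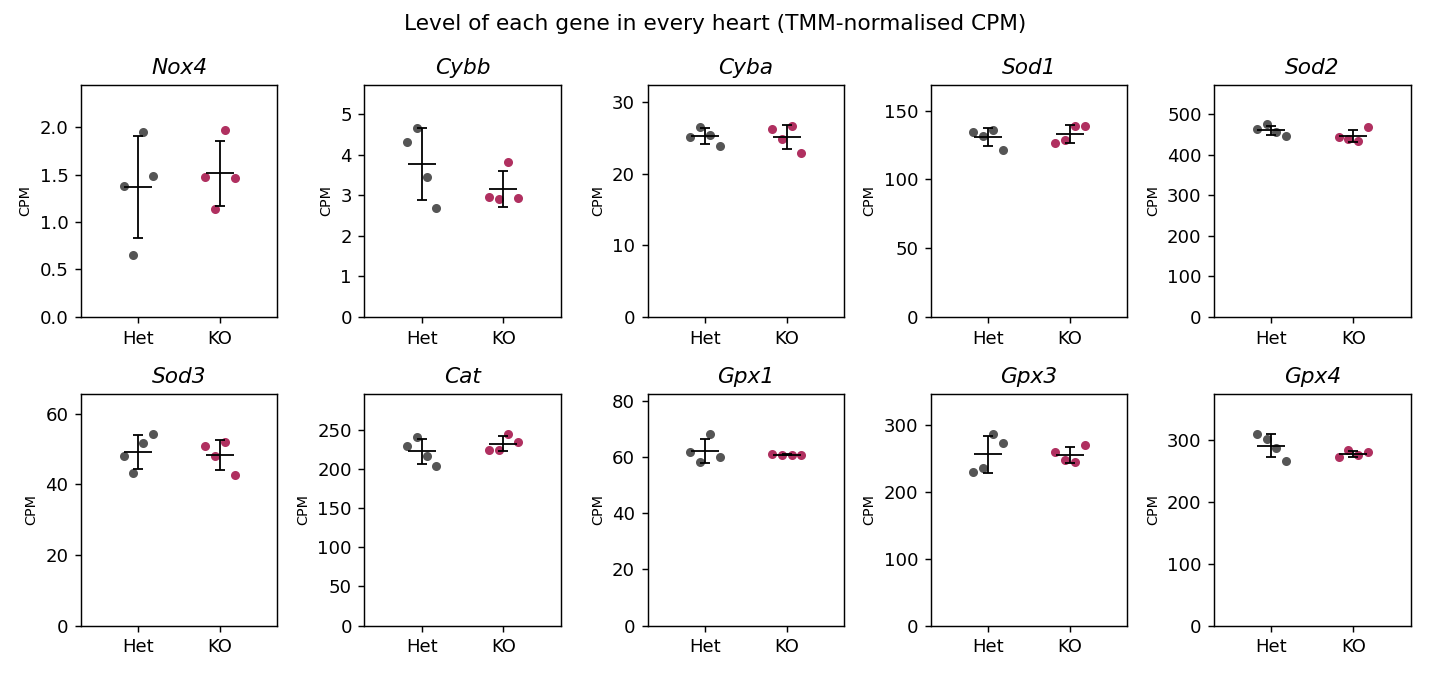
TMM-normalised CPM of the 10 genes in each heart, 4 Het (grey) and 4 KO (red), with the mean and SD. The 2 groups overlap for every gene, Nox4 and Cybb lying below 5 CPM and Sod2 between 433 and 474 CPM.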

How the data were processed

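RNA-Seq was made from 27 CF and 8 heart libraries. Per the labels, the authors trimmed reads with cutadapt, aligned them to GRCm38 with HISAT2, assembled with StringTie and tested with DESeq2. The authors deposited estimated counts per gene for the CFs and raw counts per gene for the hearts. Among genes above 0 in 1 library only, the commonest value was 6 in each CF table (17% to 22% of these genes) and 1 in hearts (57.1%), so 1 read may stand for several CF counts, and 1 alternative divided them by 6. The report gives depth as a range over the CF libraries and a range over the hearts.

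Each CF table was fitted alone, the stimuli and interactions in 1 fit of 27 libraries and the hearts alone, with edgeR 4.0.16 (TMM, filterByExpr, robust quasi-likelihood test, R 4.3.3) and Benjamini-Hochberg adjustment over all genes tested. The CF values are whole numbers and were read as estimated counts. CPM use TMM-scaled totals, and intervals are 95%. Library groups and replicate numbers come from the labels, and heart columns give the genotype but do not match the numbered sample titles. The siRNA columns carry code numbers, which only the labels of the TGF-β libraries tie to siR-1 and siR-2. The same codes were read the same way in the untreated and IL-17 tables, and every siR-1 or siR-2 value there rests on that. The script was tested on simulated data.

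The text names all 10 members, the targeted gene, pathway genes called at 1.5-fold or more in 1 direction with both siRNAs of a table at a mean of at least 1 CPM, and the 3 genes most correlated with Nox4, Sod2 and Gpx3. Ccs, and Txnrd1 and Gclc under TGF-β in Scrambled cells were chosen after their values were seen. Members and lists were chosen with earlier results of these data known. Marker lists covered fibroblasts, macrophages, neutrophils, cardiomyocytes, endothelium, smooth muscle and pericytes, erythroid cells and adipocytes. Alternatives were DESeq2 1.42.0, RLE factors, other filters, fold thresholds, a replicate block, the division by 6, fewer groups and leaving out each library, and 1 chosen after seeing the data, total counts without TMM.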

Additional observations from a re-analysis of the deposited data

Results flagged for a closer look

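The siRNA effect differed between stimulated and untreated cells, by the test of the difference itself (edgeR, adjusted over all genes), for Sod2 with siR-1 and IL-17 (0.61 log2, adjusted p = 1.44e-09) and with siR-2 and IL-17 (0.21, adjusted p = 0.0216). With siR-1 and TGF-β it differed for Sod2 (0.48, adjusted p = 1.27e-08), Cat (0.29, adjusted p = 2.03e-05), Cyba (0.29, adjusted p = 0.000163), Sod1 (0.31, adjusted p = 0.000167), Gpx3 (-0.44, adjusted p = 0.000213), Nox4 (-0.39, adjusted p = 0.000489) and Gpx1 (-0.18, adjusted p = 0.0216). With siR-2 and TGF-β it differed for Gpx3 (0.61, adjusted p = 1.53e-06), Gpx1 (-0.20, adjusted p = 0.00603), Cat (0.17, adjusted p = 0.0065) and Sod1 (0.17, adjusted p = 0.023). The remaining IAMP transcript was higher under TGF-β than in untreated cells with both siRNAs, and its part in these differences was not tested.

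In KO hearts, 1 library had Cybb at 3.82 CPM, apart from the other 3 at 2.91 to 2.96 CPM, by Dixon's test for a sample far from the rest of its group. Chance alone gives such a result in about 1 of 20 groups, and 20 were tested. These levels rest on 68 to 93 counts.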

How the results depend on the processing

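Of 160 member effects over 16 comparisons, 85 were called, and none of these changed direction under any alternative run. Alternatives are given for these and for the 35 uncalled effects of the siRNAs against Scrambled and of the hearts, not for the other 40. Leaving out 1 library at a time kept the call of 68 and ended that of 17 with at least 1 library, named in the report. The number of members called in TGF-β cells with siR-1 ranged from 4 (without siR-1 replicate 3) to 7, and that for the siR-2 difference with IL-17 from 0 to 1. That last count was 2 with DESeq2 and 0 with no filter on low counts. Adding a fold threshold (2-fold, or 1.5-fold in IL-17 and TGF-β cells) left 0, 1 and 1 members for siR-1, siR-2 and siR-2 against siR-1 in untreated cells, 2, 2 and 1 with IL-17, 1, 1 and 0 with TGF-β, 0 for IL-17 and 5 for TGF-β in Scrambled cells, and 0 for each of the 4 differences between treatments.

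Scaling by total counts turned the direction of 8 of these 35 uncalled effects, with log2 values of -0.062 for Sod3 and -0.034 for Gpx1 (untreated, siR-1), -0.031 for Nox4, -0.036 for Cyba and -0.0019 for Sod1 (untreated, siR-2), -0.069 for Cat and -0.10 for Gpx3 (IL-17, siR-1) and -0.041 for Cat (TGF-β, siR-2). It also gave a call to 8 uncalled effects, all lower, namely Cat (untreated, siR-1), Gpx1 (untreated and IL-17, siR-2, and TGF-β, siR-1), Gpx4 (IL-17, siR-1), Nox4 and Cat (IL-17, siR-2) and Cyba (TGF-β, siR-2). Leaving out 1 library gave a call in 6 fits, also all lower, to Cybb (untreated, siR-1), Gpx1 (untreated and IL-17, siR-2), Gpx4 (IL-17, siR-1) and Nox4 (IL-17, siR-2). The division by 6 gave a call to 2 uncalled effects and the replicate block to 2. With a filter at a mean of at least 1 CPM, 1 gained a call. Leaving out 1 library at a time also turned uncalled effects, which ranged from -0.021 to 0.077 for Sod3 and -0.093 to 0.054 for Gpx3 (untreated, siR-1), -0.015 to 0.055 for Cyba and -0.021 to 0.068 for Nox4 (untreated, siR-2), -0.014 to 0.020 for Gpx3 (IL-17, siR-1) and -0.0047 to 0.054 for Cat (TGF-β, siR-2). In hearts the ranges were -0.079 to 0.36 for Nox4, -0.034 to 0.036 for Cyba, -0.059 to 0.018 for Gpx1, -0.051 to 0.054 for Gpx3, -0.011 to 0.049 for Sod1 and -0.084 to 0.029 for Sod3. The call of Cyba with siR-1 and TGF-β was lost with no filter (adjusted p = 0.0834) and in the compared groups alone (0.0697). The cause was not tested.

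Replicate numbers showed no pairing of the CF libraries. For this, the mean of each group was subtracted from the log2 CPM of every gene, and libraries of different groups in a table were correlated. Same-numbered libraries then correlated at -0.17 to 0.06, and those with different numbers at -0.13 to 0.21. With the replicate number as a block, 5, 6 and 9 members were called in untreated cells, 7, 6 and 8 with IL-17, 7, 6 and 8 with TGF-β, 4 and 9 for the stimuli, and 1, 1, 8 and 4 for the differences. Without the block, the counts were 5, 5 and 9, then 6, 6 and 8, then 7, 6 and 8. For the stimuli they were 3 and 9, and for the differences 1, 1, 7 and 4. The Het and KO hearts came from different mice, and no label gives a litter or batch that would pair them, so no paired analysis was run. In hearts, depth limits Nox4, at 15 to 48 counts, and Cybb, at 67 to 107.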
